A study of Nematostella vectensis with 8 samples.

Results

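Many genes of an animal give rise to more than one kind of transcript. Alternative splicing, alternative start sites and alternative ends of transcription join different exons, so that a gene can change which of its transcripts it uses without changing how much RNA it makes in all. A comparison of gene totals does not see such a change. The species is Nematostella vectensis, the starlet sea anemone, and the knockdown was of NvfoxE-like, a forkhead transcription factor gene of the stinging cells (cnidocytes). The genes described here are those in which a transcript took a different share of its gene's reads after the knockdown. The total of the gene stayed about level on average over the 4 replicates, though not always in each replicate. Of 24520 genes, 5386 had 2 or more transcripts in the annotation, 3314 of these had at least 100 reads in every library, and 54 were set aside because their mean total differed by 1.5-fold or more. Among the 3260 genes left, 22 had a transcript whose share of the reads differed by 10 percentage points or more, in the same direction, between the shRNA and the control library of all 4 replicates. This is 0.675% of the genes that could have qualified.

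Expression was measured by bulk mRNA sequencing of whole gastrula embryos, collected 28 hours after fertilization at 24 °C. The 4 shRNA libraries came from wildtype embryos injected with NvfoxE-like shRNA, for which the study combined 2 hairpins, and the 4 control libraries from wildtype embryos injected with a scrambled RNA. Each library was a pool of about 1000 embryos, and the same-numbered shRNA and control pools are taken as pairs here, since the study describes paired replicates for its knockdowns in general but does not say which libraries belong together. Injection reaches the whole embryo, so the knockdown was not limited to one cell type, and in whole embryos fewer cells of a type cannot be told apart from less RNA per cell. The knockdown was incomplete: NvfoxE-like (NV2.25991), which has 1 annotated transcript and therefore no share to shift, had 10.5, 6.22, 12.7 and 16.8 CPM (counts scaled to a common library total) in shRNA replicates 1 to 4, against 29.1, 13.7, 48.8 and 49.5 in control replicates 1 to 4, which left 34.7% of the control level on average over the pairs. Libraries held from 18656270 to 26073612 estimated reads. The gene foxA, known from the pharynx of Nematostella embryos, had at least 3171 reads in every library. It is also on the study's list of published cnidocyte genes. With no other stage or tissue to compare, this count checks no label. No other annotation of genes was at hand, so the 22 genes are given by identifier, their transcripts by number and length, and no function is named for them.

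The 22 genes were chosen on these share differences, so the values below describe them and no test is read from them. For each gene the leading transcript is the one whose smallest difference over the 4 pairs was largest. It gained share in the shRNA libraries in 14 genes and lost share in 8. Averaged over the 4 pairs, its difference ranged from 14.2 to 49.9 percentage points in size, with a median of 24.3. In 11 genes a second transcript also passed the limit, in the opposite direction. These include the 6 genes of 2 transcripts, in which the second share follows from the first. In the other 11 genes the opposite change was spread over several transcripts or varied between pairs. The 2 groups of libraries did not overlap in the share of the leading transcript in 12 of the 22 genes, where 1.97% of all transcripts of the 3260 genes, and some transcript in 4.69% of the genes, had shares that did not overlap. The plot of shares by library shows all 22.

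**Figure D1:**
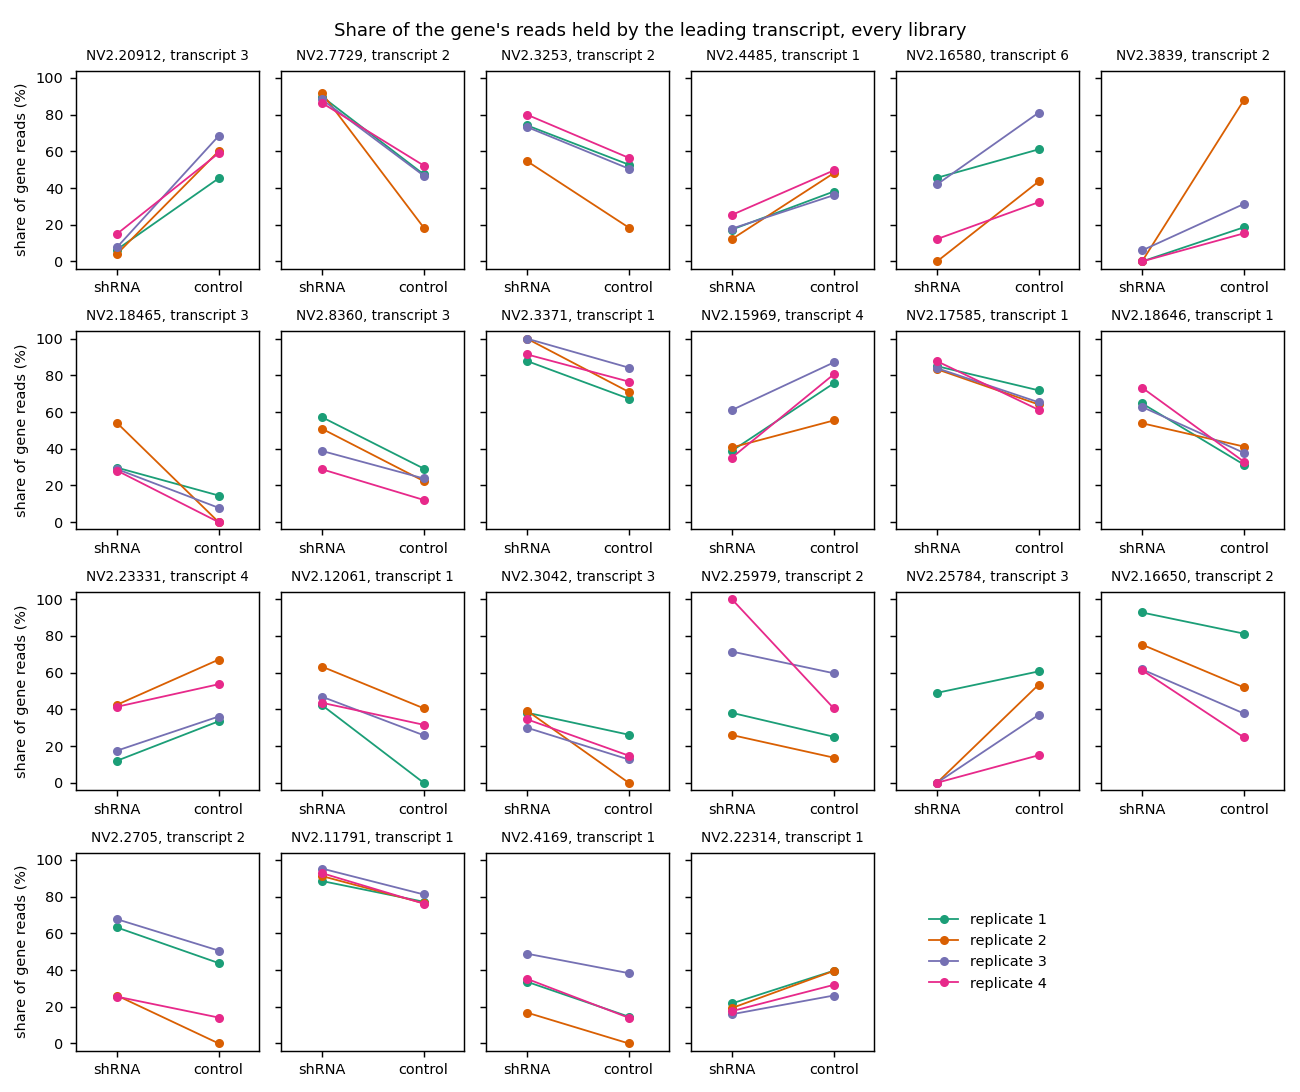
Share of the gene's reads (%) held by the leading transcript of each of the 22 genes, in shRNA libraries on the left and control libraries on the right of each panel. Lines join the libraries of 1 replicate. Panels run from NV2.20912, with the largest smallest difference (38.8 percentage points), to NV2.22314, with the smallest (10.2 percentage points).

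In 8 genes the groups did not overlap and the leading transcript was above 0 in all libraries. The widest change was in NV2.20912, where 2 transcripts of nearly equal length changed places. Transcript 3 (2142 bases) held 6.5%, 4.1%, 7.7% and 15.0% of the gene's reads in shRNA replicates 1 to 4, against 45.3%, 60.1%, 68.4% and 59.0% in control replicates 1 to 4. Transcript 1 (2080 bases) held 57.2%, 62.7%, 52.2% and 36.6% in the shRNA libraries, against 13.4%, 1.3%, 0.0% and 0.0% in the controls. Every shRNA library thus lay on the other side of every control library for both transcripts, and the mean difference of transcript 3 was -49.9 ± 10.2 percentage points (SD, n = 4 pairs). The shorter transcript 2 (1559 bases) averaged 39.5% in shRNA libraries and 38.1% in controls. The total of NV2.20912 was 31.3, 27.7, 29.7 and 28.3 CPM in shRNA replicates 1 to 4, against 31.3, 28.6, 26.1 and 28.9 in control replicates 1 to 4, a mean log2 ratio of 0.03 ± 0.11 (SD, n = 4 pairs).

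In NV2.7729 the shRNA libraries drew most of their reads from a single transcript. Transcript 2 (1918 bases) held 89.9%, 91.7%, 88.3% and 86.4% of the reads in shRNA replicates 1 to 4, against 47.5%, 18.5%, 46.8% and 52.3% in control replicates 1 to 4. Most of this gain was matched by transcript 4 (1976 bases), which averaged 2.4% in shRNA libraries and 36.8% in controls. Transcript 3 averaged 3.0% in shRNA libraries and 11.6% in controls, and transcript 1 averaged 5.5% in shRNA libraries and 10.3% in controls. All 4 shRNA libraries lay within 5.3 percentage points of each other, while control replicate 2 lay below the other controls. The mean difference of transcript 2 was 47.8 ± 17.4 percentage points (SD, n = 4 pairs), and 39.3 without replicate 2. Transcripts 2 and 4 differ by few bases in annotated length, and the total differed by a mean log2 ratio of 0.08 ± 0.05.

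Another gene of 3 transcripts, NV2.4485, moved between its longest transcript and a shorter one. Transcript 1 (2433 bases) held 17.4%, 12.2%, 17.9% and 25.4% of the reads in shRNA replicates 1 to 4, against 38.1%, 48.1%, 36.1% and 49.6% in control replicates 1 to 4. Transcript 2 (1575 bases) held 37.3%, 46.3%, 35.4% and 40.0% in the shRNA libraries, against 18.1%, 18.9%, 21.9% and 18.2% in the controls. By mean share of reads, transcript 3 (1626 bases, 42.0%) was first in shRNA libraries and transcript 1 (43.0%) in controls. This did not hold in every library: transcript 3 held the most reads in control replicates 1 and 3, and transcript 2 in shRNA replicates 2 and 4. By TPM (abundance per transcript length), transcript 3 was above transcript 1 in control replicates 1 to 4, with 18.1, 11.3, 14.8 and 11.1 against 9.77, 10.2, 7.94 and 10.6. The mean transcript length, weighted by TPM, was 169 bases shorter in the shRNA libraries. Its total averaged 42.8 TPM in shRNA libraries and 30.8 TPM in controls, with log2 ratios of reads per library total of -0.01, 0.29, 0.28 and 0.34 in replicates 1 to 4.

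Among genes of 2 transcripts, in which one share is 100% minus the other, NV2.18646, NV2.17585 and NV2.11791 had groups that lay apart. Transcript 1 of NV2.18646 (1097 bases) held 64.7%, 53.9%, 62.8% and 73.3% of the reads in shRNA replicates 1 to 4, against 31.4%, 41.2%, 37.8% and 33.0% in control replicates 1 to 4. It was the more abundant one in every shRNA library and the less abundant one in every control library. Transcript 1 of NV2.17585 (2906 bases) held 85.0%, 83.3%, 83.9% and 87.7% in the shRNA libraries, against 71.8%, 64.1%, 65.3% and 61.2% in the controls. Transcript 1 of NV2.11791 (4053 bases) held 88.5%, 91.2%, 95.3% and 92.8% in the shRNA libraries, against 77.2%, 76.4%, 81.2% and 76.2% in the controls. NV2.11791 had the smallest mean difference of the 22 genes and the most even one, at 14.2 ± 2.2 percentage points (SD, n = 4 pairs), on 1260 to 3702 reads per library. In these last 2 genes the same transcript led in both groups and only its margin differed.

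The remaining genes of this kind were NV2.3371 and NV2.22314. Transcript 1 of NV2.3371 (2431 bases) held 87.8%, 100%, 100% and 91.4% of the reads in shRNA replicates 1 to 4, against 67.3%, 71.0%, 84.2% and 76.6% in control replicates 1 to 4. Transcript 2, at 2204 bases, averaged 5.2% in shRNA libraries and 24.8% in controls, and was at 0 reads in shRNA replicates 2 and 3. This gene was thinly covered, with 133 to 238 reads per library. NV2.22314, with 11 annotated transcripts, was the most abundant of the 22 genes at a mean of 87.6 TPM. Its transcript 1 (2758 bases) held 21.8%, 19.3%, 15.9% and 17.6% in the shRNA libraries, against 39.6%, 39.5%, 26.1% and 31.9% in the controls. Its transcript 5 (3211 bases) averaged 33.7% in shRNA libraries and 15.4% in controls, so a different transcript had the largest mean share in each group. In control replicate 3, however, transcript 10 (3034 bases) held the most reads, at 34.4%.

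**Figure D2:**
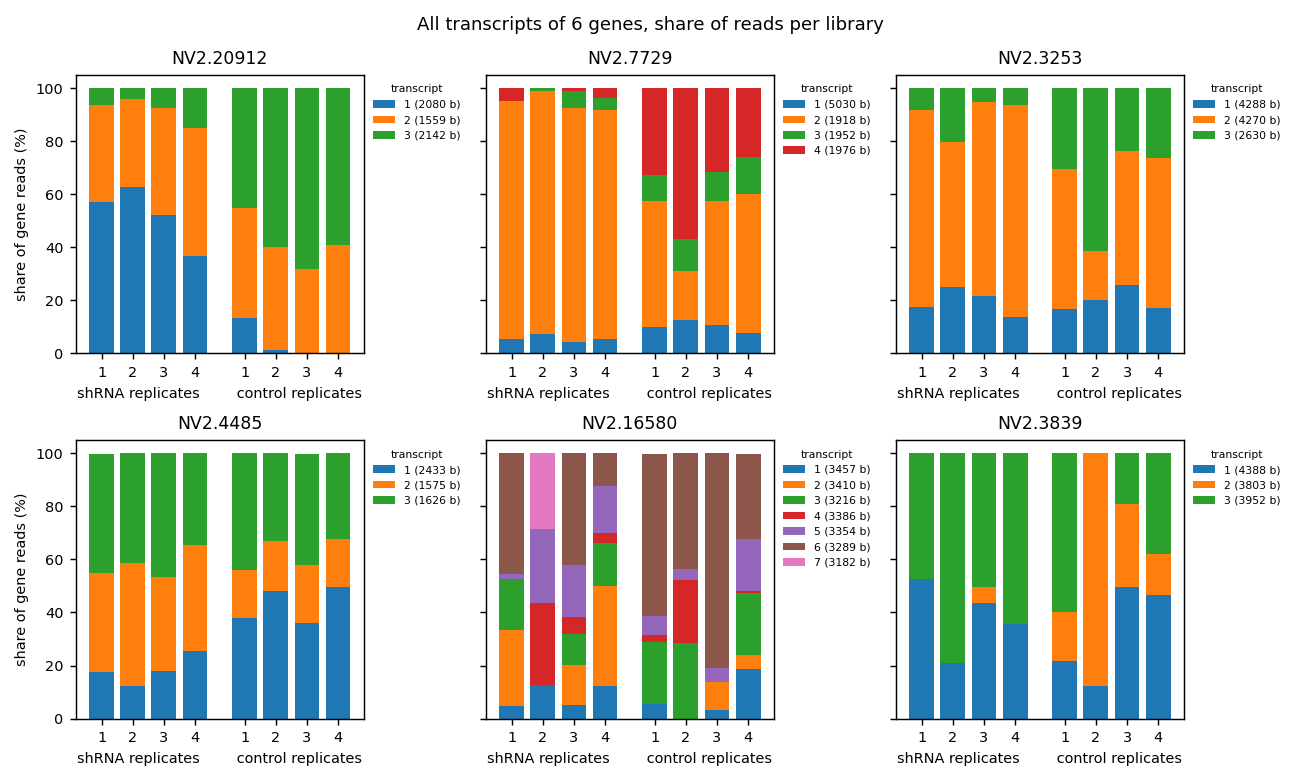
Share of reads (%) of every annotated transcript, stacked, in the 4 shRNA libraries (left) and 4 control libraries (right) of the 6 genes with the largest smallest difference; b, bases. NV2.20912, NV2.7729 and NV2.3253 have a broadly like makeup within each group, with exceptions. These are control replicate 2 in NV2.7729 and replicate 2 of both groups in NV2.3253. In NV2.20912 they are shRNA replicate 4, where transcript 2 held the most reads (48.4%), and control replicate 1, where transcript 1 held 13.4%. In NV2.4485 the transcript with the most reads alternates between replicates of both groups. The makeup of NV2.16580 and NV2.3839 differs from library to library.

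In 4 further genes the groups did not overlap, but the leading transcript was at 0 reads in 1 to 3 libraries. Transcript 2 of NV2.3839 (3803 bases) held 0.0%, 0.0%, 6.0% and 0.0% of the reads in shRNA replicates 1 to 4, against 18.6%, 87.8%, 31.3% and 15.3% in control replicates 1 to 4. One library set much of this difference: the mean was -36.7 ± 34.3 percentage points (SD, n = 4 pairs), and -19.7 without replicate 2. Transcript 3 of NV2.18465 (4085 bases) held 29.7%, 54.1%, 28.9% and 28.1% in the shRNA libraries, against 14.5%, 0.0%, 7.8% and 0.0% in the controls. NV2.12061 and NV2.3042 are given by their means. Transcript 1 of NV2.12061 (2856 bases) averaged 49.0 ± 9.7% in shRNA libraries and 24.5 ± 17.4% in controls, and transcript 3 of NV2.3042 (4625 bases) averaged 35.5 ± 4.2% in shRNA libraries and 13.4 ± 10.7% in controls (SD, n = 4 each). In NV2.12061 transcript 4 (2955 bases) held 49.7% and 36.7% in shRNA replicates 1 and 2 and was at 0 reads in the other 6 libraries, and in NV2.3042 transcript 1 (4731 bases) held 0.0% in shRNA replicate 2 and 99.5% in control replicate 2. Such swings between an absent and a leading transcript within one group were not limited to these genes.

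In the other 10 genes the groups overlapped in the share of the leading transcript, although every pair and the group means differed. In NV2.3253 and NV2.8360 the lowest shRNA library lay just below the highest control library. Transcript 2 of NV2.3253 (4270 bases) held 74.2%, 54.7%, 73.3% and 80.0% of the reads in shRNA replicates 1 to 4, against 52.8%, 18.5%, 50.6% and 56.5% in control replicates 1 to 4, and replicate 2 was the lowest library of both groups. Transcript 3 (2630 bases) moved the other way, with an average of 10.1% in shRNA libraries and 35.6% in controls, and the TPM-weighted length of the gene was 517 bases longer in the shRNA libraries, the largest such change of the 22. The mean difference of transcript 2 was 26.0 ± 6.9 percentage points (SD, n = 4 pairs), and 22.6 without replicate 2. Transcript 3 of NV2.8360 (4737 bases) held 57.2%, 50.9%, 38.8% and 28.8% in the shRNA libraries, against 29.2%, 22.4%, 23.8% and 12.1% in the controls. Replicate 4 was the lowest library of both groups here.

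In NV2.16650 and NV2.2705 the level varied widely between replicates of both groups. Transcript 2 of NV2.16650 (1529 bases) held 92.8%, 75.3%, 61.8% and 61.4% of the reads in shRNA replicates 1 to 4, against 81.3%, 52.0%, 37.8% and 24.8% in control replicates 1 to 4. Transcript 2 of NV2.2705 (4531 bases) held 63.2%, 26.1%, 67.7% and 25.5% in the shRNA libraries, against 43.8%, 0.0%, 50.6% and 14.1% in the controls. In both genes the replicates differed more than the groups did, by up to 56.5 percentage points among controls of NV2.16650 and 50.6 among controls of NV2.2705. The replicates fell in the same order in both groups in 4 of the 22 genes, namely NV2.3253, NV2.23331, NV2.16650 and NV2.22314. The count over the 3260 genes is not given here, so no trait of the 22 is read from this.

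Among these 10 genes the pair differences were least even, by their SD, in NV2.16580, NV2.15969, NV2.25784 and NV2.25979. Transcript 6 of NV2.16580 (3289 bases), a gene of 7 transcripts, held 45.6%, 0.0%, 42.0% and 12.2% of the reads in shRNA replicates 1 to 4, against 61.1%, 43.6%, 81.1% and 32.3% in control replicates 1 to 4. Transcript 4 of NV2.15969 (3710 bases) held 38.9%, 40.7%, 61.1% and 35.2% in the shRNA libraries, against 75.6%, 55.4%, 87.0% and 80.5% in the controls. This was the least abundant gene of the 22, at a mean of 3.01 TPM and 115 to 315 reads per library. Transcript 3 of NV2.25784 (2653 bases) was at 0 reads in shRNA replicates 2 to 4 and held 49.0% in shRNA replicate 1, against 60.7%, 53.5%, 37.0% and 15.0% in control replicates 1 to 4. Transcript 2 of NV2.25979 (1066 bases), whose identifier lies 12 numbers from that of NvfoxE-like, had a mean difference of 24.1 percentage points. This fell to 12.4 without replicate 4, in which the transcript held 100% in the shRNA library and 40.6% in the control.

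NV2.23331 and NV2.4169 complete the list. Transcript 4 of NV2.23331 (2650 bases), a gene of 9 transcripts, averaged 28.4 ± 15.9% in shRNA libraries and 47.6 ± 15.8% in controls, and transcript 1 of NV2.4169 (8345 bases) averaged 33.6 ± 13.2% in shRNA libraries and 16.7 ± 15.9% in controls (SD, n = 4 each). The transcript with the largest mean share of reads differed between the groups in 11 of the 22 genes, namely NV2.20912, NV2.4485, NV2.3839, NV2.18646, NV2.23331, NV2.12061, NV2.3042, NV2.25979, NV2.25784, NV2.16650 and NV2.22314, and in 168 of the 3260 genes (5.15%). Read shares are not scaled for transcript length, and the count was not repeated by TPM. In NV2.4485 transcript 3 had the highest TPM in every control library. In NV2.20912 transcript 2 had a higher TPM than transcript 1 in shRNA replicates 3 and 4, and a lower one in shRNA replicates 1 and 2. At the limit itself, NV2.11791, NV2.4169 and NV2.22314 were just inside, with smallest differences of 11.3, 10.61 and 10.24 percentage points, and NV2.3319, NV2.16792 and NV2.21170 were just outside, with 9.94, 9.84 and 9.81. No cluster of identifiers was found, since the nearest 2 of the 22 identifiers lie 70 numbers apart.

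The gaining transcript was the longer of the pair in 11 genes and the shorter in 11. The TPM-weighted length per gene changed by between -169 and 517 bases, and was longer in shRNA libraries in 11 genes and shorter in 11. No direction by length was therefore seen. The 22 genes had a median of 3 transcripts, as did all 3260 genes, and their longest transcripts had a median of 4090 bases, against 3223 bases over the 3260. They were somewhat less abundant, with a median of 13.7 TPM against 21.7, and 6 of the 22 (27.3%) had exactly 2 transcripts, against 46.1% of the 3260. Such medians are descriptions and were not tested.

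**Figure D3:**
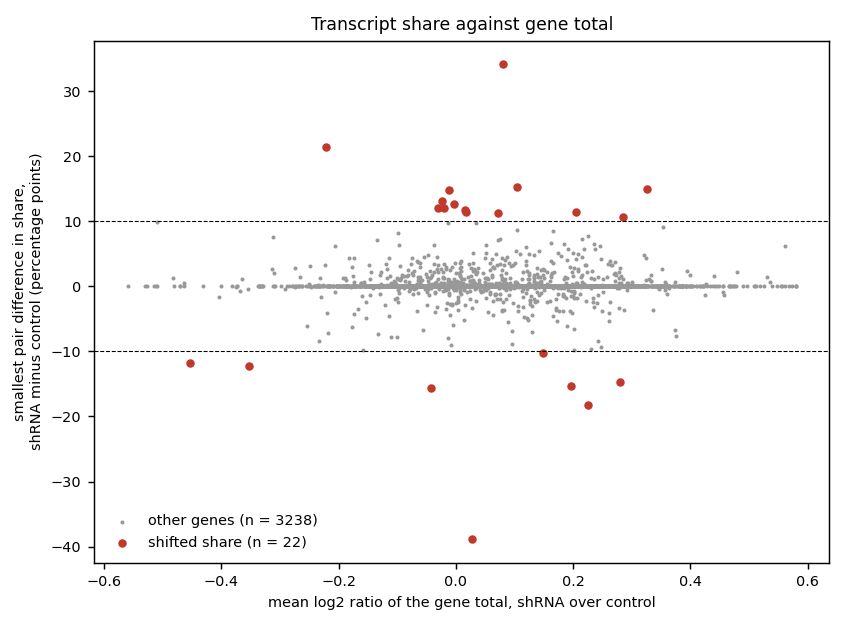
Each point is 1 of the 3260 genes. The x axis gives the mean log2 ratio of the gene total, shRNA over control, and the y axis the smallest difference in share over the 4 pairs (percentage points, shRNA minus control), for the transcript where it is largest, with 0 where the pairs disagree in direction. The 22 genes (red) lie beyond the dashed lines at 10 percentage points, with totals between log2 ratios of -0.45 and 0.33.

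The totals of the 22 genes were limited by the choice and are likewise a description. Their mean log2 ratios ranged from -0.45 (NV2.25784) to 0.33 (NV2.8360), with a median of 0.02, against 0.06 over the 3260 genes. Single pairs went further in some genes. The log2 ratios in replicates 1 to 4 were 0.3, -1.1, -0.03 and -0.99 in NV2.25784, and 0.08, 0.83, -0.21 and -0.11 in NV2.22314. A level mean therefore does not mean a level total in each pair. The sign was the same in all 4 pairs in 2 genes. Under the study's thresholds (adjusted p of 0.05 or less and 1.5-fold), edgeR called 0 of the 22 in the unpaired test, where 0.0% of 19002 genes were called, and 0 in the paired fit with the replicate as a block, where 1.28% were called. At an unadjusted p of 0.05 the unpaired test gave 0 of the 22, where it gave 1.64% of all genes, and the paired fit gave 3, where it gave 9.87%.

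A share read from Salmon is an estimate, since a read that matches several transcripts of a gene is divided among them. The widest 95% Wilson interval of a leading transcript's share in any library had a half-width between 1.9 percentage points (NV2.22314) and 8.9 (NV2.15969). These intervals cover counting error only, and not the division of reads between similar transcripts, for which the tables hold no error. Within each of the 22 genes, the widest range of a transcript share over the 4 shRNA libraries had a median of 30.9 percentage points and over the 4 control libraries a median of 33.7, against 11.6 and 12.6 over all 3260 genes. In 16 of the 22 genes (72.7%) some transcript was at 0 reads in one library and at 10% or more of the gene in another, as in 1004 of the 3260 (30.8%). The part of this spread in the choice of the genes was not tested.

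The directions over the pairs were counted in the same way for all 3260 genes. In 100 genes (3.07%) some transcript differed by 10 percentage points or more in size in every pair, and the 22 are those in which the 4 pairs went the same way. In 18 genes pair 1 went against the other pairs, in 13 pair 2 did, in 12 pair 3 and in 13 pair 4. In 13 genes pairs 1 and 2 went against pairs 3 and 4, in 9 pairs 1 and 3 went against 2 and 4, and in 5 pairs 1 and 4 went against 2 and 3. A gene can stand under several of these by different transcripts. The common direction was thus the most frequent of the 8 patterns, but 18 genes, nearly as many, had one in which pair 1 ran against the rest. A single pattern other than the common one occurred in a median of 13 genes.

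**Figure D4:**
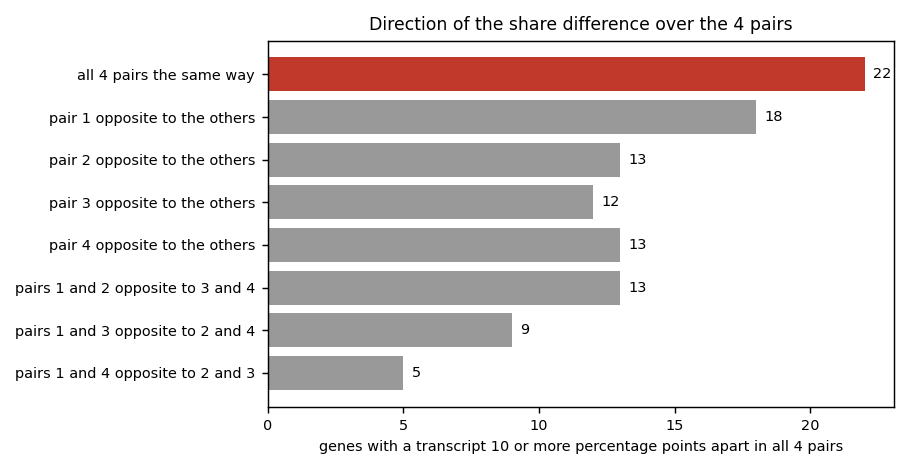
Number of genes, of 3260, with a transcript whose share differed by 10 percentage points or more in size in all 4 pairs, by the pattern of directions over the pairs. The common direction (red) holds 22 genes, and the 7 other patterns hold 5 to 18.

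The limits were also applied to 3 pairs at a time, and the 4th pair was then read. It was read for the transcript that led on the 3 pairs used, which need not be the one that leads on all 4. Without replicate 1, 71 genes passed on the other pairs, and in pair 1 41 of them (57.7%) had a difference in the same direction, 18 by 10 percentage points or more, while 17 differed by as much in the opposite direction. Without replicate 2, 35 of 59 (59.3%) went the same way, 26 by 10 points or more and 14 by as much in the opposite direction. Without replicate 3 the numbers were 50 of 80 (62.5%), 21 and 10, and without replicate 4 they were 41 of 67 (61.2%), 23 and 14. In each case more genes kept the direction than turned it, but the median difference in the unused pair, counted as positive where it kept the direction, was 2.3 to 7.8 percentage points, where the 3 pairs used for the choice had medians of 20.7 to 22.1. A transcript past 10 points in the same direction in the unused pair also passes the share limit on all 4 pairs. Its gene is among the 22 only if it also meets the limits on reads and total over all 4 pairs. The unused pair was not held to these, so the counts of 26 and 23 can exceed 22. Of the 22 genes, 21 or 22 passed on each choice of 3 pairs. These counts therefore largely repeat the 22 genes, and the opposite ones the direction patterns above, and add no support.

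**Figure D5:**
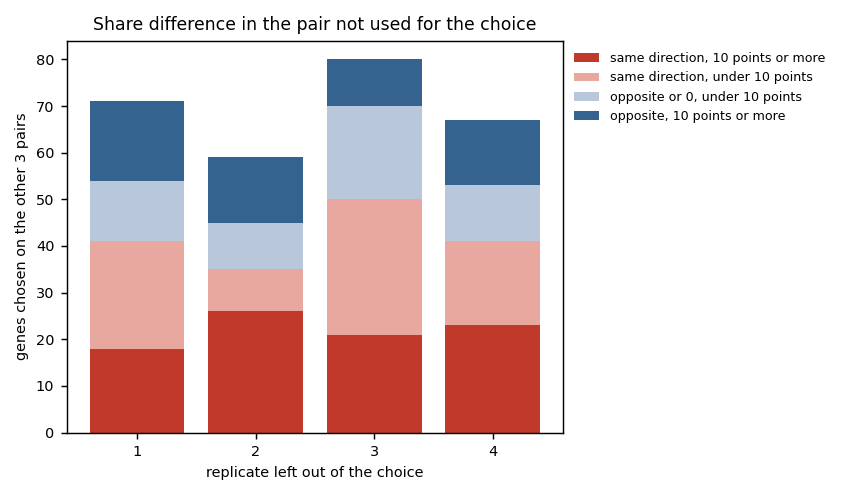
Genes that met the limits on 3 pairs, by the replicate left out (x axis), divided by the share difference in the unused pair of the transcript that led on the other 3. Of 59 to 80 genes per bar, 18 to 26 differed by 10 percentage points or more in the same direction and 10 to 17 by as much in the opposite direction.

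Transcript usage was also fitted over all genes with 2 or more transcripts that passed a filter on low counts (edgeR with diffSpliceDGE, Simes p per gene, Benjamini-Hochberg adjustment). This is the contrast on which the 22 genes were chosen, so their calls add no support. The unpaired fit called 3 of 3657 genes (0.082%), of which 0 were among the 22, and 5 of the 22 had an unadjusted p of 0.05 or less, as had 0.82% of all genes tested. The paired fit, with the replicate as a block, also called 3 genes (0.082%), none shared with the unpaired fit. NV2.3253 was the 1 gene of the 22 called, with an adjusted p of 0.00362, and 9 had an unadjusted p of 0.05 or less, as had 2.49% of all genes tested. For NV2.20912 and NV2.7729 the paired adjusted p was 0.244 and 0.382. Paired limma with diffSplice called 35 genes (0.957%), 9 of them among the 22, which were NV2.20912, NV2.7729, NV2.3253, NV2.4485, NV2.17585, NV2.18646, NV2.16650, NV2.11791 and NV2.22314.

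A contrast that the choice did not use was that between library name prefixes. Replicates 3 and 4 carry one prefix (LA20_3) and replicates 1 and 2 another (LA19_2), and the batch given in the labels is the same for all 8 libraries, and the meaning of the prefix was not stated. Between prefixes, with treatment in the model, edgeR called transcript usage in 71 of 4252 genes (1.67%) and in 0 of the 22, of which 1 had an unadjusted p of 0.05 or less (NV2.15969, adjusted p = 0.164), where 10.4% of all genes tested had one. The same fit by limma called 308 of 4252 genes, and how many of the 22 were among them is not given here. The largest gap in the leading transcript was in NV2.25979, with 68.0% in replicates 3 and 4 and 25.7% in replicates 1 and 2, averaged over both groups. In NV2.16650 the values were 46.5% and 75.3%. Gene totals of the 22 were higher in replicates 3 and 4 in 14 genes (63.6%), as in 61.2% of the 3260, with a median log2 ratio of 0.68 against 0.34.

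Cnidocyte genes, the class in which NvfoxE-like acts, could add little here because few of them have more than one annotated transcript. Of 38 published cnidocyte genes with an identifier in the tables, 7 had 2 or more transcripts, 4 of these met the limits on reads and total, and 0 of the 4 were among the 22. The 4 were the transcription factor genes Nvznf845, NvpaxA, coup-like1 and foxA. Their smallest pair differences were at most 1.3 percentage points, and edgeR called transcript usage in 0 of the 4 in either fit, where 0.082% of all genes were called. NvpaxA, a Pax gene of developing cnidocytes, had the largest mean difference: its transcript 3 held 0.0%, 0.0%, 0.6% and 0.5% of the reads in shRNA replicates 1 to 4, against 13.0%, 34.3%, 1.2% and 4.8% in control replicates 1 to 4. The gap was under 10 percentage points in replicates 3 and 4. Transcript 1 of Nvznf845, a zinc finger gene, held 96.6%, 91.1%, 96.6% and 97.7% in the shRNA libraries, against 95.2%, 95.7%, 98.3% and 96.6% in the controls, so its groups overlapped. The other 3 genes of several transcripts fell outside the limits: NVE5730 and foxL2 by their totals, with mean log2 ratios of -0.65 and 0.71, and NVE17236 with as few as 3 reads in a library.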

How the data were processed

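Paired-end 150 bp reads, trimmed and filtered by the sequencing provider, were quantified by the authors on Galaxy with Salmon, using transcripts of the Nvec200 genome (versions, strand setting and bias options: not given in the sources used here). The deposited tables hold, for 35819 transcripts per library, Salmon's estimated counts (expected reads, which need not be whole), TPM values scaled by Salmon within each library, and annotated and effective lengths. Effective lengths differed from the annotated ones by a near constant amount for transcripts of 3000 bases or more (a span of 10 bases within a library, for example 314.724 to 324.724 in shRNA replicate 1), so they carry no correction particular to a transcript.

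Genes were taken from characters 5 to 10 of the transcript name. Shares are a transcript's estimated counts over those of its gene, and totals are counts per library total. The members, gene lists and tests were chosen with earlier results of these data known. Usage and totals were tested with edgeR 4.0.16 (rounded counts, TMM, filterByExpr with a minimum count of 10) under R 4.3.3. limma 3.58.1 and DESeq2 1.42.0 served as alternatives, and shares and intervals used Python 3.11.15. On simulated counts, the usage test recovered 100% of 200 planted shifts among 3899 genes unpaired, with 14 false calls, and 95.5% among 3836 genes paired, with 7. Each transcript was simulated on its own, with a fixed spread between libraries and no error from dividing reads between transcripts. The planted shifts moved a large part of the most abundant transcript's reads, and the unpaired simulation had no difference between replicates. These recoveries therefore do not give the power of the tests on the real shares. The shRNA and control library of a replicate deviated together from their group means, with r = 0.408, 0.833, 0.828 and 0.687 in replicates 1 to 4. Libraries of different numbers were not compared in this way, so these r values alone do not show that same-numbered libraries are pairs. Same-numbered libraries were taken as pairs, and paired values are given beside unpaired ones. No library pair agreed within sampling noise (chi-square per degree of freedom of 20.0 or more), so 8 samples were kept. P-values measure the spread between these pools.

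Named with every library's share are the 12 genes of largest smallest pair difference, and the text accounts for all 22. The 2 or 3 genes at the limit follow a rule as well, and further genes were given in full after their values were seen. RefSeq's gene table (jaNemVect1.1) matched 0 of 24520 identifiers, so no sequence, name or coordinate is given.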

Additional observations from a re-analysis of the deposited data

Results flagged for a closer look

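In 5 cases the share of a leading transcript in 1 library of a group of 4 lay far from the rest, by Dixon's gap test at its 95% critical value, which chance passes in about 1 of 20 groups. Of 88 groups tested (shares and totals of 22 genes in both treatments), 5 were marked, all of them shares. In NV2.7729 control replicate 2 held 18.5%, against 46.8% to 52.3% in the other controls, and in NV2.3253 the same library also held 18.5%, against 50.6% to 56.5%. In NV2.3839 shRNA replicate 3 held 6.0% where the other shRNA libraries were at 0. In NV2.18465 shRNA replicate 2 held 54.1%, against 28.1% to 29.7% in the others. In NV2.25784 shRNA replicate 1 held 49.0% where the others were at 0. With 3 values at 0 any other value passes this test, so the marks in NV2.3839 and NV2.25784 follow from the zeros alone, and all 5 shares are among those on which the genes were chosen. Replicate 2 gave 3 of the 5 values.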

How the results depend on the processing

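The number of genes depended mainly on the limits. With a share limit of 0.05, 82 genes passed, with 0.15, 8, and with 0.2, 3. Shares of TPM gave 26 genes (21 of the 22 among them), a minimum of 50 or 200 reads gave 29 or 16, no limit on the total gave 26, a total inside 1.2-fold gave 17, TMM scaling gave the same 22 and leaving out transcripts under 10 reads gave 23. Rules on 3 pairs pass more genes by construction, from 59 to 80 without one replicate. All 110 alternative values of the 22 mean differences kept their sign and lay within 1 SD of the main value. For the values without one replicate both outcomes were fixed in advance, by the common direction of the pairs and by arithmetic. Only the values from TPM shares could have come out otherwise. Without replicate 2, -36.7 became -19.7 percentage points in NV2.3839, and without replicate 4, 24.1 became 12.4 in NV2.25979.

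Transcript usage over all genes was called in 3 genes in both fits, in 1 with no filter, in 3 to 15 without one replicate, and with the replicate block in 0 to 5 without one replicate and in 35 by limma (both chosen after seeing the data, as was the reading of the unused pair). Between prefixes, 71 genes became 165 with the gene-wise F test, 308 with limma and 13 to 323 without one replicate. Gene totals gave 0 calls unpaired (smallest adjusted p = 0.22, and 311 genes at an unadjusted p of 0.05), 56 with DESeq2 and 243 with the replicate block. Genes of low read number and the division of reads between similar transcripts limit what these shares can show.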

Other observations

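Without the limit on the total, 4 further genes passed the share limit, and in these the amount of RNA and the transcript used differed together. All 4 were called for their total in the paired fit of edgeR and 0 in the unpaired one (adjusted p of 0.85 to 1), where the paired fit called 1.28% and the unpaired fit 0.0% of 19002 genes. These 4 had totals 1.5-fold or more apart by the choice itself, so the calls add no support. NV2.6060 rose by a log2 fold change of 1.32 ± 0.14 (SE, paired adjusted p = 0.00118), and its transcript 2 (6799 bases) held 91.8%, 94.9%, 86.3% and 91.5% of the reads in shRNA replicates 1 to 4, against 77.6%, 83.1%, 62.2% and 79.2% in control replicates 1 to 4. NV2.14941 fell by 1.48 ± 0.23 (SE, paired adjusted p = 0.0104) on the log2 scale, and its transcript 3 (1545 bases) had a mean difference in share of -21.4 ± 5.1 percentage points (SD, n = 4 pairs).

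NV2.24159 fell by 0.93 ± 0.13 (SE, paired adjusted p = 0.00537) on the log2 scale. Its transcript 4 (3256 bases) held 1.6%, 1.3%, 1.0% and 10.9% of the reads in shRNA replicates 1 to 4, against 59.7%, 71.9%, 20.9% and 54.1% in control replicates 1 to 4. NV2.25184 fell by 1.17 ± 0.18 (SE, paired adjusted p = 0.0118), and its transcript 2 (5745 bases) held 65.7%, 79.5%, 92.1% and 80.6% in the shRNA libraries, against 49.8%, 1.7%, 53.3% and 41.3% in the controls. In all 4 genes the groups did not overlap in the share of the transcript named, where 4.69% of the 3260 genes had some such transcript. These 4 genes were singled out after their values were seen, and carry no name in the sources used here.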
